A study of Ovis aries with 24 samples.

Results

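In the rumen epithelium of young lambs, 58 of the 27054 genes listed were at or above 2 CPM (a gene's count divided by the library total, times 1000000) in every library of d5, and reached in no library of d10 more than 0.5 of their lowest d5 value. Of the 12149 genes with at least 2 CPM in every d5 library, 60 (0.494%) met these limits, and 2 of them were left out by the rule that defines the set. The 58 genes were thus chosen on their rumen values, which are described without a test, and were then followed in the reticulum, omasum and abomasum, whose libraries the choice did not use.

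The data are RNA sequencing counts from the epithelium of the 4 stomach chambers, taken from d5 lambs and from other, d10 lambs. Each chamber had 3 libraries an age (24 in all, in 8 groups), with 13041697 to 19650121 counts per library. According to the labels, the epithelium was taken off the muscle layer, in the rumen from the ventral sac, and no lamb is labelled with a treatment. The study's methods describe the d5 lambs as male Hu lambs on ewe's milk, with starter pellets offered from d10. The d10 lambs are not described there. Whether chambers with the same number came from 1 lamb is not given in the labels, and p-values measure only the spread between these libraries.

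The rumen, reticulum and omasum (the forestomachs) are lined by a stratified squamous epithelium, which in the adult takes up and metabolizes the volatile fatty acids of fermentation. The abomasum has a glandular mucosa that secretes acid and digestive enzymes, and is the working stomach of the milk-fed lamb, in which milk bypasses the rumen. The rumen wall of the newborn is undeveloped, and its epithelium is remodelled as solid feed is taken in. Genes carry Ensembl identifiers here, and 0 of the 27054 could be paired with a symbol. The functions of the 58 genes and the cell type markers of the labelled tissue are therefore not given here. The genes are numbered 1 to 58 by their lowest rumen d5 value, from 340.4 CPM (gene 1) down to 2.14 CPM (gene 58), and 2 of them are also given by identifier.

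In the rumen, the 58 genes together took 2778, 3400 and 2572 CPM in d5 libraries 1, 2 and 3. They took 381.1, 848.0 and 594.4 CPM in d10 libraries 1, 2 and 3, so that the highest d10 library was below the lowest d5 library, as the choice requires. Over all 12149 genes, every d10 library was below every d5 library in 9.54%. In bulk tissue, fewer cells of a type and less RNA per cell cannot be told apart. The mean over the d5 libraries was 2.45 to 70.8 times that over the d10 libraries, with a median over the genes of 6.50 times, and 11 genes were at 10 times or more.

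**Figure D1:**
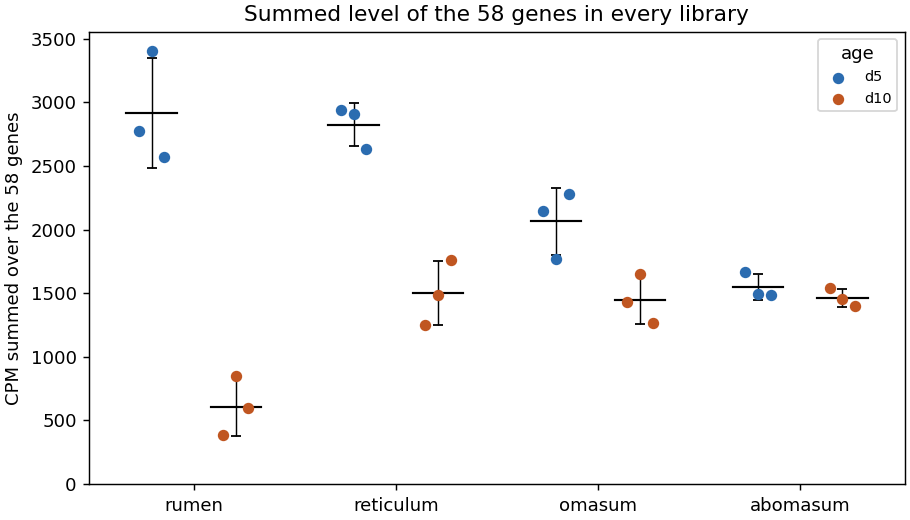
CPM summed over the 58 genes (vertical axis) in each library of the 4 chambers at d5 (blue) and d10 (orange); bars are the mean and the SD of 3 libraries. The rumen runs from 2572 to 3400 CPM at d5 and from 381.1 to 848.0 CPM at d10, the reticulum d10 libraries (1253 to 1762 CPM) lie below the d5 libraries of that chamber (2634 to 2938 CPM), and in the abomasum, where genes 40 and 45 make up 649.4 to 1143 CPM, both ages lie between 1398 and 1663 CPM.

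By choice every gene was reduced, and none was lost altogether. The highest d10 value was at most 0.25 of the lowest d5 value in 10 genes and at most 0.1 in 1 gene, with a median ratio of 0.405. None of the 58 genes had as few as 3 counts in every d10 library (0 genes), and 2 genes had 0 counts in a d10 library (d10 library 1, in which 0 counts allow up to 0.216 CPM). In 10 genes all d10 libraries were under 1 CPM. The lowest count of any of the 58 genes in a d5 library was 32 (2.45 CPM, exact Poisson 95% interval 1.68 to 3.46 CPM, which covers counting error only).

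The set has no natural edge. The last gene inside had a d5 minimum of 6.30 CPM and a d10 maximum of 3.14 CPM (ratio 0.499). The first gene outside stood at 69.9 and 35.0 CPM (ratio 0.501). Between ratios of 0.5 and 0.55 lay 11 further genes, and 20 of the 58 genes had a ratio above 0.45. With the same limits turned around, 219 genes had at least 2 CPM in every d10 library and at most 0.5 of the lowest of them in every d5 library, more than in the direction of the set. Both counts are on unscaled CPM. The TMM factors, by which edgeR scales libraries, were 0.919 to 0.956 in the rumen at d5 and 1.04 to 1.07 at d10. On TMM-scaled CPM the set was 75 genes, and the count turned around was not repeated. The edge also moves with single libraries: the same limits were met by 95 genes without rumen d5 library 3 and by 176 without rumen d10 library 2.

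**Figure D2:**
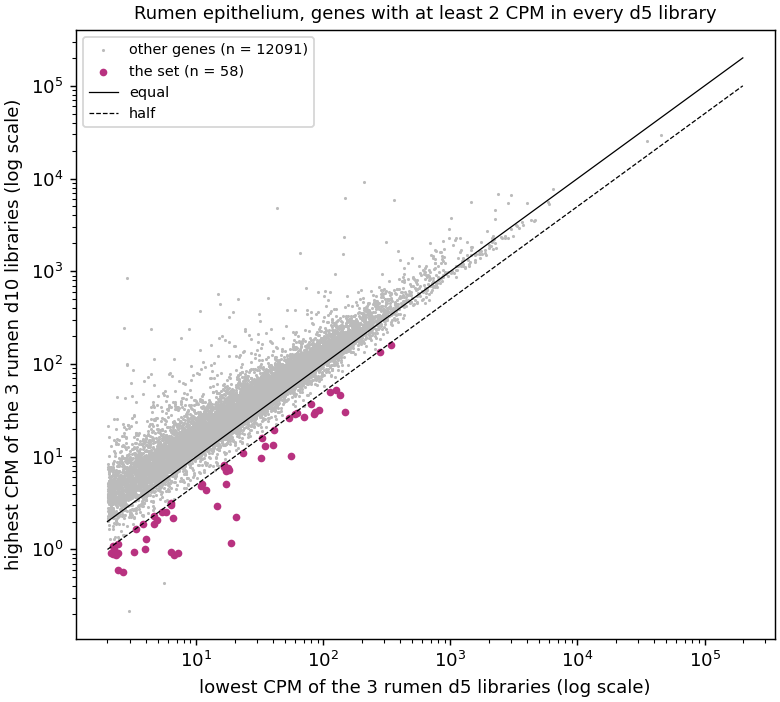
Lowest CPM of the 3 rumen d5 libraries (horizontal axis) against the highest CPM of the 3 rumen d10 libraries (vertical axis), both on log scales, for the 12149 genes with at least 2 CPM in every d5 library. The 58 genes (magenta) lie under the dashed line at a ratio of 0.5 with d5 minima of 2.14 to 340.4 CPM; the 2 grey points under that line are the genes left out by the rule.

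Gene 1 (ENSOARG00000011055) heads the list by CPM, which is not a level per length of gene. Its CPM was 342.7, 534.4 and 340.4 in rumen d5 libraries 1 to 3 and 35.8, 160.6 and 111.8 in rumen d10 libraries 1 to 3. The reticulum did not show this difference: it was at 208.2, 155.8 and 215.7 CPM at d5 and at 54.2, 247.7 and 286.6 CPM at d10, so that the ages overlapped. The log2 fold change from d5 to d10 there was -0.02 ± 0.55 (SE, 3 libraries at each age, edgeR adjusted p = 0.995). The gene was hardly present in the abomasum, where 5 of 6 libraries were at 0.41 CPM or less and d5 library 2 was at 21.8 CPM.

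Gene 23 (ENSOARG00000015313) had the lowest ratio of the set. It stood at 18.8, 37.7 and 20.02 CPM in rumen d5 libraries 1 to 3 and at 0.72, 0.76 and 1.18 CPM in rumen d10 libraries 1 to 3, a mean of 25.5 ± 10.6 (SD, n = 3) against 0.89 ± 0.25 CPM. In the reticulum it was at 38.5, 50.7 and 32.6 CPM at d5 and at 5.33, 10.5 and 3.07 CPM at d10. The ages did not overlap there, but the log2 fold change of -2.75 ± 0.39 (SE) did not pass the test after adjustment (edgeR, adjusted p = 0.113). In the omasum the ages overlapped, with 14.6 to 18.9 CPM at d5 and 14.9 to 25.4 CPM at d10, and in the abomasum every library was at 4.31 CPM or less. For this gene, a gap between the ages was thus seen in rumen and reticulum.

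In the reticulum, many of the 58 genes were also lower at d10, though 0 of them passed the adjusted test of edgeR. In 29 of the 58 genes every reticulum d10 library was below every d5 library, against 5.36% of the genes with at least 2 CPM in every rumen d5 library. The opposite order was found in 0 of the 58 genes, against 5.63%, and in the other 29 genes the ages overlapped. The mean was lower at d10 in 51 of the 58 genes (44.8% of the same background) and at most 0.5 of the d5 mean in 29 of them (1.28%).

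By edgeR's quasi-likelihood test in the 6 reticulum libraries, all 58 genes were tested and 0 were called at an adjusted p under 0.05, as were 0 of all 14708 genes (0%). At an unadjusted p under 0.05, 33 of the 58 genes were lower at d10, against 3.28% of all genes tested, and 0 were higher (4.14%). DESeq2 called 14 of the 58 genes, all lower, against 0.326% of all genes. The median log2 fold change of the 58 genes was -1.15, and that of all genes tested was 0.01. The share of genes with a gap thus lay above the background, while the single genes rest on 3 libraries an age and did not survive adjustment by edgeR.

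The same limits that define the set in the rumen were met in the reticulum by 18 of the 11912 genes with at least 2 CPM in every reticulum d5 library (0.151%). Of these 18 genes, 9 belonged to the 58, that is 50% of the reticulum genes and 15.5% of the rumen genes (genes 3, 19, 23, 24, 34, 40, 48, 51 and 55). Gene 3 is the first of them by number. It stood at 194.3, 152.1 and 149.0 CPM in rumen d5 libraries 1 to 3 and at 30.4, 25.1 and 17.8 CPM in rumen d10 libraries 1 to 3. In the reticulum it was at 58.9, 63.6 and 55.6 CPM at d5 and at 22.9, 23.9 and 24.01 CPM at d10, a narrow spread within each age and a log2 fold change of -1.38 ± 0.20 (SE, edgeR adjusted p = 0.113). Gene 34, another of them, was under 2 CPM at d10 in both chambers, with 14.97, 12.7 and 16.1 CPM in the reticulum at d5 and 0.37, 1.49 and 0.36 CPM at d10, and with 7.21, 9.05 and 10.9 CPM in the rumen at d5 and 0, 0.92 and 0.06 CPM at d10.

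**Figure D3:**
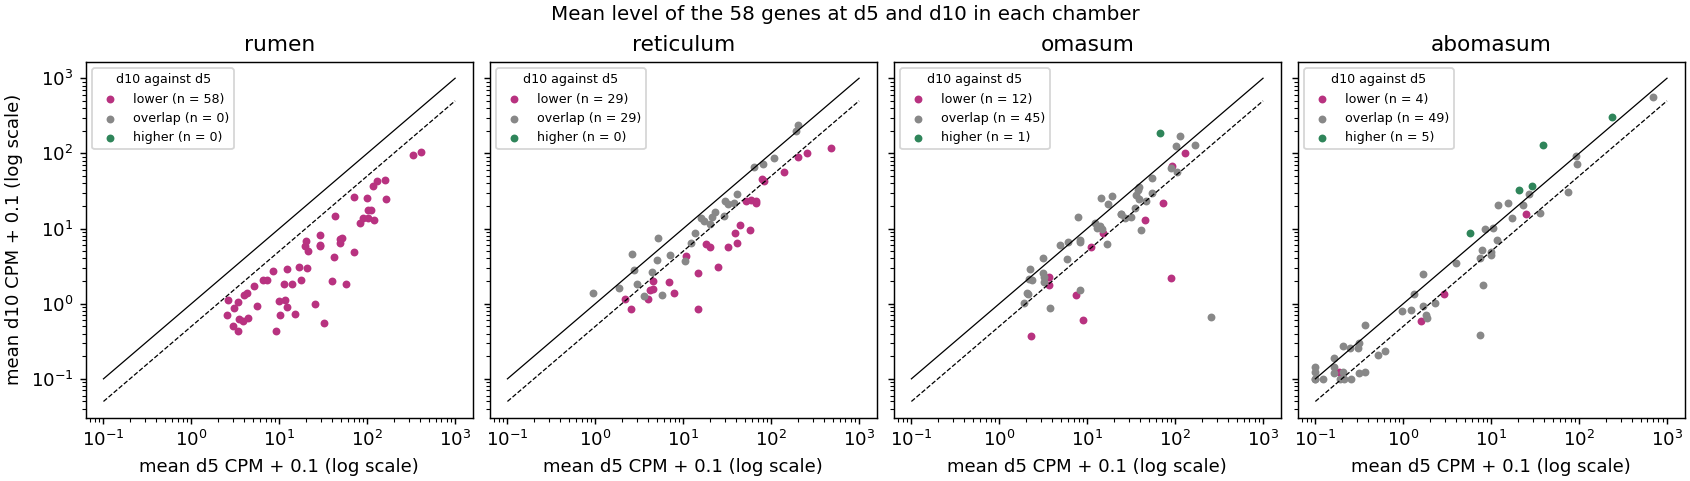
Mean CPM + 0.1 of the 58 genes at d5 (horizontal axis) and d10 (vertical axis), both on log scales, in each chamber; each point is 1 gene, the solid line marks equal means and the dashed line a ratio of 0.5. Magenta points have every d10 library below every d5 library (58 genes in the rumen by choice, 29 in the reticulum, 12 in the omasum, 4 in the abomasum), green points the opposite order (0, 0, 1 and 5) and grey points overlap.

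The rumen and reticulum libraries may not be fully independent of each other. Rumen and reticulum libraries with the same number deviated alike from their group means over all genes expressed, with a correlation of 0.162 to 0.297 in 3 pairs at d5 and 0.15 to 0.346 in 3 pairs at d10. Same-numbered d5 and d10 libraries of 1 chamber, which are of different lambs, ran from -0.415 to 0.219. Libraries with different numbers were not compared, so that these values cannot decide whether a lamb was shared. Among the 58 genes, d10 library 2 was the highest of the 3 rumen d10 libraries in 39 genes and the highest of the 3 reticulum d10 libraries in 40 genes. Over the background genes the same library was highest in 30.04% and 37.9%. In 32 of the 58 genes it was the highest in both chambers. In the omasum, d10 library 2 was the highest of 3 in 21 of the 58 genes, against 18.5% of the background genes, and in the abomasum in 19, against 21.5%. Rumen and omasum libraries with the same number also deviated alike at d10, with correlations of 0.222 to 0.302 in 3 pairs, so that neither chamber can be taken as fully independent of the rumen values that chose the set. Without reticulum d10 library 2, 41 of the 58 genes had a gap between the ages (13.3% of the background), 39 were lower at an unadjusted p under 0.05 (3.21% of all genes tested) and 3 at an adjusted p under 0.05 in edgeR (0.0202%). Leaving out a library can only keep or raise the count of gaps. Without d10 library 1 or 3 there were 31 and 30 gaps, for which no background share was computed. In these fits 29 and 28 genes were lower at an unadjusted p under 0.05 (243 of 15007 and 601 of 15078 genes). The part of any shared lamb in the count for the reticulum was not tested.

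In the omasum, 12 of the 58 genes had every d10 library below every d5 library (3.29% of the background) and 1 gene had the opposite order (14.4%). The mean was lower at d10 in 47 of the 58 genes (25.2% of the background). By edgeR in the 6 omasum libraries, 57 of the 58 genes were tested and 0 were called, as were 0 of all 15130 genes (0%). At an unadjusted p under 0.05, 13 genes were lower (4.08%) and 0 higher (3.26%), and DESeq2 called 9 genes lower (0.654%).

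These omasum values touch on 2 libraries that stand apart. A set of 27 genes abundant in the abomasum and nearly absent from the rumen (100 CPM or more in all abomasum libraries, and in no rumen library over 1% of the lowest of these, with 0 of the 58 genes among them) summed to 7.37% of the abomasum level in omasum d5 library 1 and to 94.1% in library 2. In the 4 other omasum libraries they reached at most 0.0668%. Library 2 was the lowest of the 3 omasum d5 libraries in 38 of the 58 genes, 21 of which were under 1 CPM in all abomasum libraries. No share over the background was computed for the 38. In 14 of the 58 genes library 2 was the highest (20.4% of the background). Among these were genes 40, 45, 47, 51, 52 and 54, which also belong to the 13 genes lower by edgeR at an unadjusted p under 0.05. Gene 45 was at 53.0, 706.6 and 0.93 CPM in omasum d5 libraries 1 to 3 and at most at 1.29 CPM at d10. Without libraries 1 and 2, the remaining d5 library was above every d10 library in 37 of the 58 genes (26.6% of the background), 22 genes were lower at an unadjusted p under 0.05 (3.65%) and 0 at an adjusted p under 0.05 (0%). With 1 library at d5, these p-values rest on the spread of the d10 libraries, which the d5 library is assumed to share. Without library 2 alone, 29 genes had a gap (12.8%), 25 were lower at an unadjusted p under 0.05 (4.41%) and 0 at an adjusted p under 0.05 (0%).

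Gene 19 had the same order of the ages in all forestomachs. It stood at 68.7, 51.8 and 32.6 CPM in the rumen at d5 and at 1.58, 4.44 and 16.1 CPM at d10. In the reticulum it was at 77.4, 50.1 and 46.4 CPM at d5 and at 2.89, 10.5 and 15.2 CPM at d10. In the omasum it was at 58.7, 34.6 and 41.4 CPM at d5 and at 10.4, 12.0 and 16.5 CPM at d10 (log2 fold change -1.997 ± 0.218, SE, edgeR adjusted p = 0.322). The abomasum, with 19.3 to 30.6 CPM at d5 and 20.2 to 39.3 CPM at d10, overlapped between the ages. In the rumen, d10 library 3 was nearest to the d5 libraries for this gene, whereas library 2 was for most of the set.

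Gene 36 was the gene with the opposite order in the omasum, and its levels were higher there and in the reticulum than in the rumen. It was at 13.5, 13.8 and 6.61 CPM in the rumen at d5 and at 1.58, 2.17 and 1.47 CPM at d10. In the omasum it was at 81.0, 10.7 and 108.6 CPM at d5 and at 148.1, 261.2 and 153.8 CPM at d10, where the low d5 value is that of library 2 (log2 fold change 1.39 ± 0.69, SE, edgeR adjusted p = 0.679). In the reticulum it ranged from 99.6 to 348.8 CPM at d5 and from 48.2 to 471.3 CPM at d10, so that the ages overlapped.

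**Figure D4:**
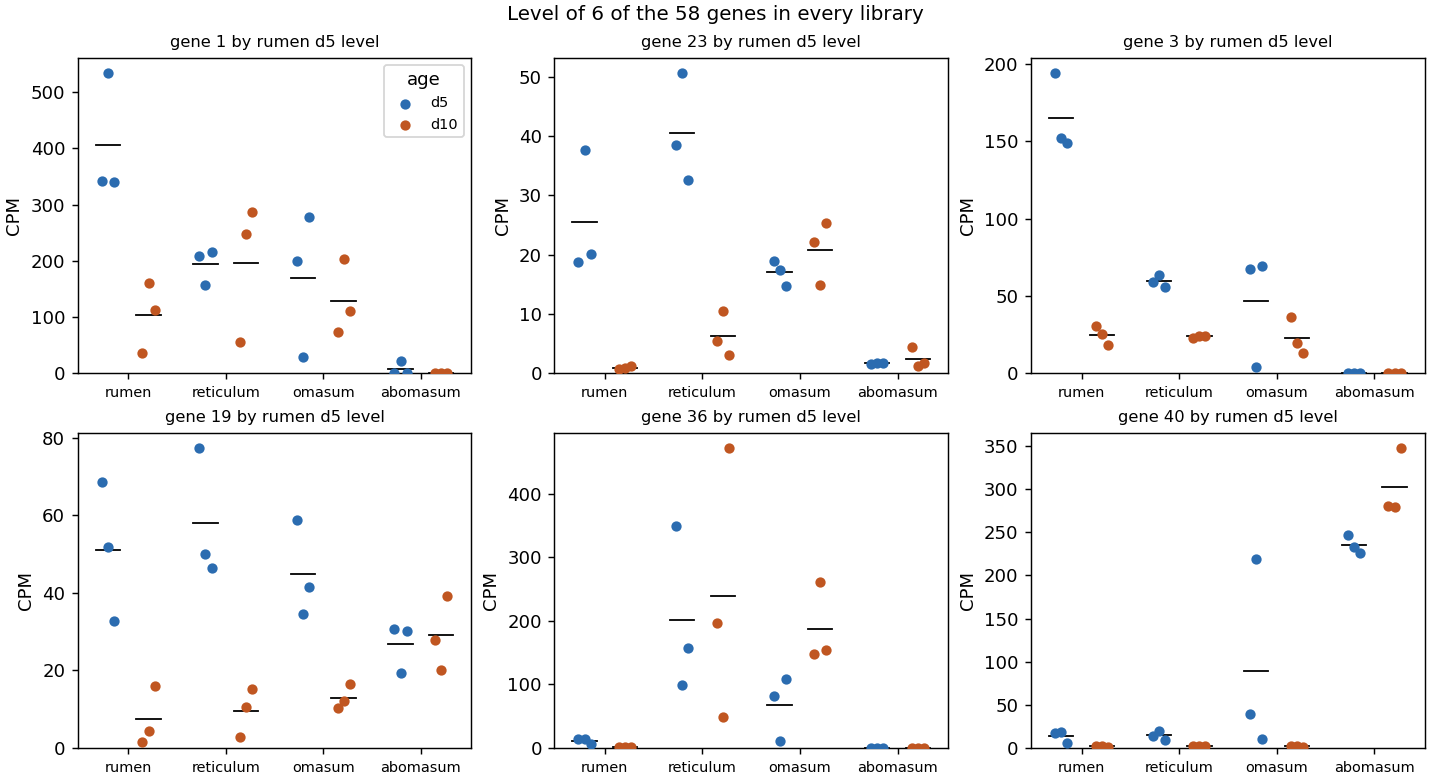
CPM (vertical axes, from 0, a scale for each panel) of genes 1, 23, 3, 19, 36 and 40 in each library of the 4 chambers at d5 (blue) and d10 (orange), in the order of library number; bars are means. Gene 1 lies at 340.4 to 534.4 CPM in the rumen at d5 but overlaps between the ages in the reticulum, gene 3 lies at 55.6 to 63.6 and 22.9 to 24.01 CPM at the 2 ages of the reticulum, and gene 40 lies at 226.0 to 347.4 CPM in the abomasum.

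In the abomasum, 4 of the 58 genes had every d10 library below every d5 library (1.22% of the background) and 5 had the opposite order (7.36%), while 49 overlapped. Here 34 of the 58 genes passed the filter on low counts, with 0 called by edgeR, as were 0 of all 13780 genes tested (0%). At an unadjusted p under 0.05, 5 genes were lower (2.37%) and 1 was higher (3.48%), and DESeq2 called 0 of the 58 genes lower (0.123%). None of the 58 genes (0) met in the abomasum the limits used in the rumen, which 0.0387% of the genes there did, and the omasum held 2 (genes 19 and 40, 0.149%). The summed level was 1484 to 1663 CPM at d5 and 1398 to 1539 CPM at d10, but genes 40 and 45 alone made up 654.1 to 1143 CPM at d5 and 649.4 to 979.2 CPM at d10. Without them the sum was 482.7 to 839.7 CPM at d5 and 439.4 to 807.8 CPM at d10, and the median gene of the set was at 0.68 to 2.33 CPM at d5 and at 0.63 to 1.46 CPM at d10, so that the sum says little of most of the genes. Whether the age effect differs between reticulum and abomasum was tested in a fit of the 12 libraries of both, a test added after seeing the data. It called 0 of the 58 genes, lower or higher (0% of 15505 genes), and at an unadjusted p under 0.05 the change was lower in the reticulum for 9 of the 58 genes (2.98%) and higher for 1 (3.80%).

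The presence of the genes differed between the chambers. At 1 CPM or more in all 3 libraries of a group, 57 of the 58 genes were detected in the reticulum at d5 and 46 at d10. The omasum held 46 at d5 and 48 at d10. In omasum d5 libraries 1, 2 and 3, 58, 49 and 55 of the genes reached 1 CPM. Library 2, with the lowest of these counts, is the one at 94.1% of the abomasum level of the abomasal genes. For the reticulum and omasum counts, no share over the background was computed. The abomasum held 27 at d5 and 26 at d10. In the abomasum, 22 of the 58 genes (37.9%) stayed under 1 CPM in all 6 libraries, against 2.14% of the genes with at least 2 CPM in every rumen d5 library. At both ages, 25 of the 58 were detected there (43.1%), against 87.1%. By these shares, genes at or near 0 in the abomasum were more frequent in the set than in the background, a difference that was not tested.

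Single genes were tested between chambers. At d10, in a fit of the 9 libraries of reticulum, omasum and abomasum, 30 of the 58 genes were higher in the reticulum than in the abomasum (18.1% of 15515 genes) and 12 were lower (17.9%), by edgeR at an adjusted p under 0.05, with 57 genes tested. Against the abomasum, the omasum was higher in 33 genes (20.0%) and lower in 10 (20.6%). Between reticulum and omasum 0 genes were called (0% higher and 0.00645% lower over all genes). At an unadjusted p under 0.05, 2 were lower (2.33%) and 1 higher (3.33%) in the reticulum. DESeq2 and limma-voom also called 0 of the 57 genes tested. Over all 15515 genes, DESeq2 called 43 lower and 83 higher, and limma-voom 5 lower and 8 higher. At d5, the reticulum was higher than the abomasum in 32 genes (12.8%) and lower in 6 (12.6%). Requiring at least 10 counts in every library keeps 21 of the 58 genes at d10 and 28 at d5, since genes near 0 in the abomasum then go untested. The calls were then 10 for each comparison with the abomasum at d10 and 12 at d5. At d10, the reticulum was higher in 3 genes and lower in 7 (1778 and 2064 of all 12106 genes). The omasum was higher in 5 and lower in 5 (2048 and 2408). At d5, the reticulum was higher in 6 and lower in 6 (1263 and 1400 of all 11771 genes). With this filter, a majority of genes higher in the forestomachs was thus not seen.

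Gene 6 belongs to the larger group, higher in the forestomachs. It was at 115.0, 121.2 and 112.9 CPM in the rumen at d5, at 34.2, 25.3 and 50.03 CPM in the rumen at d10, and at 86.7, 65.2 and 114.7 CPM in the reticulum at d10. In the abomasum it was at 0.07, 0.20 and 0.06 CPM at d10 (edgeR adjusted p = 9.86e-06 for reticulum against abomasum), where a value rests on 1 to 3 counts and no fold is given. Gene 35 had its highest levels in the reticulum, with 318.9, 859.7 and 253.9 CPM at d5 against 11.1, 78.8 and 6.67 CPM in the rumen, and with 220.4, 44.7 and 87.4 CPM at d10 against 0.14, 0.87 and 0.35 CPM in the rumen. In the abomasum it reached at most 0.12 CPM. In rumen and reticulum at d5, library 2 was the highest for this gene.

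**Figure D5:**
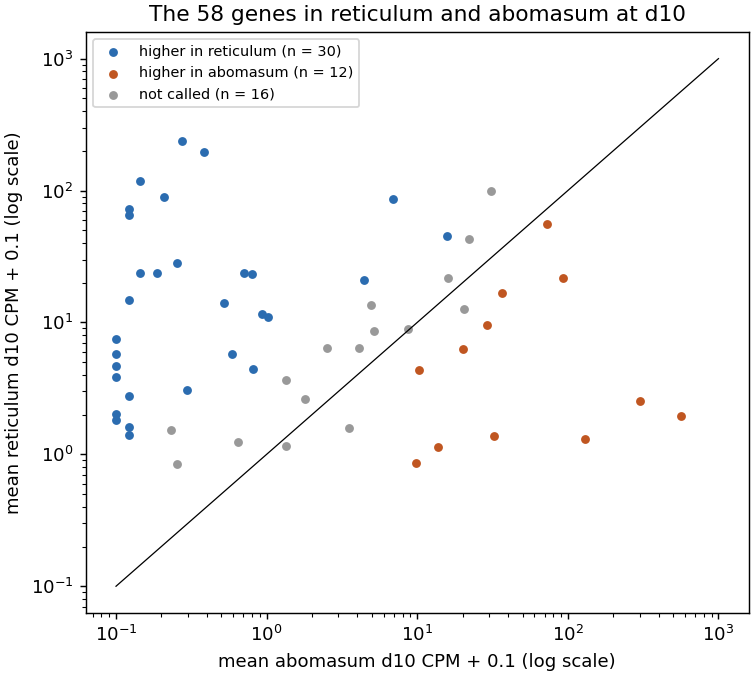
Mean CPM + 0.1 of the 58 genes in the abomasum (horizontal axis) and reticulum (vertical axis) at d10, both on log scales; each point is 1 gene and the line marks equal means. The 30 genes higher in the reticulum by edgeR (blue) lie at the left, 27 of them with an abomasum mean under 1 CPM, the 12 genes higher in the abomasum are orange, and the remaining 16 genes are grey, 1 of them not tested.

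The smaller group was higher in the abomasum. In 6 of the 58 genes every abomasum library was above every rumen library of either age (genes 40, 45, 47, 51, 52 and 58), against 4.43% of the background. By the choice, the highest rumen value of each of the 58 genes is a d5 value, and the d5 values entered the choice too. Gene 40 was at 17.4, 18.3 and 5.81 CPM in the rumen at d5 and at 2.52, 1.68 and 0.94 CPM at d10. In the reticulum it was at 14.4, 19.5 and 9.55 CPM at d5 and at 1.92, 2.74 and 2.64 CPM at d10 (log2 fold change -2.59 ± 0.35, SE, edgeR adjusted p = 0.113). In the abomasum it was at 247.0, 232.4 and 226.0 CPM at d5 and at 280.7, 279.6 and 347.4 CPM at d10. Gene 45 was at 4.03, 12.9 and 19.6 CPM in the rumen at d5 and at 1.29, 0.87 and 0.24 CPM at d10, against 369.8 to 895.6 CPM in the abomasum. Both were high in omasum d5 libraries 1 and 2, with 39.4 and 219.5 CPM for gene 40 and 53.0 and 706.6 CPM for gene 45, and low in library 3, with 10.3 and 0.93 CPM.

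Because such genes are abundant in the abomasum, the level of abomasal transcripts in the rumen and reticulum is given here. The 27 abomasal genes summed to 0.00625% to 0.0838% of the abomasum level in the rumen d5 libraries, to 0.00573% to 0.0167% in the rumen d10 libraries, to 0.0205% to 0.0681% in the reticulum d5 libraries and to 0.0173% to 0.0255% in the reticulum d10 libraries. Their part in the levels of the 58 genes was not tested.

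The chamber with the highest mean is given here for each age, with the fall in the rumen set by the choice. At d5, the highest of the 4 chamber means was that of the rumen in 32 of the 58 genes, of the reticulum in 14, of the omasum in 4 and of the abomasum in 8. At d10 it was that of the rumen in 4 genes, of the reticulum in 19, of the omasum in 23 and of the abomasum in 12. The rumen means entered the choice, so that this shift is a description. No share over the background was computed for it, and the omasum d5 means include libraries 1 and 2, which stand apart. The reticulum d5 mean was 0.253 to 25.3 times the rumen d5 mean, with a median of 0.769 times. It was at least 2 times as high in 5 genes and at most 0.5 times in 13. Gene 46 lay at the upper end, with 111.0, 121.9 and 89.8 CPM in the reticulum at d5 against 3.96, 4.14 and 4.67 CPM in the rumen, and with 111.1, 31.9 and 113.4 CPM in the reticulum at d10 against 0, 0.65 and 1.002 CPM in the rumen. At d10, every reticulum library was above every rumen library in 17 of the 58 genes, against 4.50% of the background, a count that the low rumen d10 values of the choice enter.

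The spread between the d5 rumen libraries also varied within the set. The coefficient of variation over the 3 libraries had a median of 24.2% and ran from 2.76% to 125.6%, with 10 genes above 50%. Gene 5 had nearly the same level in each, with 127.7, 132.9 and 126.1 CPM at d5 and 37.1, 52.9 and 40.2 CPM at d10. Gene 22 was at 20.7, 116.9 and 32.8 CPM at d5 and at 2.23, 1.84 and 1.18 CPM at d10. Rumen d5 library 2 was the highest of the 3 in 31 of the 58 genes, against 25.2% of the background genes, and gene 22 is one of these.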

How the data were processed

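The values deposited by the authors are whole-number read counts, without normalization, for 27054 Ensembl sheep gene identifiers in 24 libraries. CASAVA 1.8 and TopHat2 2.0.13 are listed in the submitters' processing notes. How reads were counted, the genome build, the annotation and the use of strand were not given in the sources used here. Of the identifiers, 0 were found in RefSeq's table of sheep genes (35057 genes, ARS-UI_Ramb_v3.0), so that the marker and pathway lists could not be used.

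CPM was computed over the library total (1 count is 0.0509 to 0.0767 CPM) without regard to gene length. The numbering of genes by CPM is thus no order of their levels per length. Groups were taken from the labels. The genes, lists and tests were chosen with earlier results of these data known. Of the 58 genes, identifiers are given for that with the highest rumen d5 minimum and that with the lowest ratio among those of at least 5 CPM; the other genes discussed were chosen after their values were seen. Differences were tested with edgeR 4.0.16 in R 4.3.3 (TMM, filterByExpr, quasi-likelihood test, two-sided, Benjamini-Hochberg over all genes tested, threshold 0.05). SEs were obtained by dividing the absolute log2 fold change by the root of the F statistic. The scripts were tested on simulated data. Alternatives were DESeq2 1.42.0 or its size factors, limma-voom (limma 3.58.1), other filters, a fit of all 24 libraries, leaving out each library, and the replicate number as a block. Same-numbered libraries of omasum and abomasum at d10 deviated together (correlations 0.173, 0.135 and 0.2), as did those of rumen with omasum at d10 (0.302, 0.301 and 0.222) and of rumen with reticulum at both ages. Of the other pairs of chambers, some were above 0 for every library number and some were not. At d10, reticulum with omasum stood at 0.26, -0.0284 and -0.161, and reticulum with abomasum at 0.278, -0.095 and 0.0758. At d5, rumen with omasum stood at 0.254, 0.0177 and 0.0587, reticulum with omasum at 0.0891, 0.0762 and 0.129, and omasum with abomasum at 0.0541, 0.0645 and 0.078. Rumen with abomasum stood at -0.000178 to 0.0434 at d5, and reticulum with abomasum at -0.0283, 0.128 and -0.107. The labels do not give the pairing, and these correlations do not settle it.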

Additional observations from a re-analysis of the deposited data

Results flagged for a closer look

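Leaving out the rumen, in which all 58 genes are lower at d10 by choice, every library moved one way with age in 1 chamber and the opposite way in another in 3 genes, by CPM. All of these 3 genes (20, 40 and 52) were higher at d10 in the abomasum, on CPM not scaled by TMM. The TMM factors of the abomasum d5 libraries ran from 0.77 to 1.25, so that this order can depend on the scaling. With TMM, edgeR gave log2 fold changes there of 0.511 ± 0.335, 0.179 ± 0.307 and 0.5149 ± 0.3755 (SE, edgeR adjusted p = 0.914, 0.998 and 0.944). Against the rumen alone, genes 16 and 54 were opposite in the abomasum and gene 36 in the omasum. Gene 20 was at 22.2, 40.3 and 54.1 CPM in the reticulum at d5 and at 1.04, 17.5 and 7.65 CPM at d10, against 3.77, 6.79 and 6.15 CPM and 7.89, 8.49 and 9.48 CPM in the abomasum. The log2 difference of the age effects was -2.76 ± 0.95 (SE, edgeR adjusted p = 0.698). For gene 40, whose values are given above, it was -2.78 ± 0.42 (SE, edgeR adjusted p = 0.341). Neither passed the test. Gene 52 was at 4.07, 20.9 and 1.68 CPM in the omasum at d5 and at 0.65, 0.58 and 0.27 CPM at d10, a ratio of the means of 17.8, against 19.2, 20.1 and 22.4 CPM and 26.9, 46.2 and 24.4 CPM in the abomasum. This difference was not tested, and omasum d5 library 2, which held 94.1% of the abomasum level of the abomasal genes, is the highest of the omasum values. No outlier test was made on groups of 3 libraries.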

How the results depend on the processing

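Of 246 alternative values for 20 results, 221 stayed within 1.5 times of the count given, or within the spread between libraries for a median. Many of these were counts of 0 set against 0. The cause of the other 25 was not tested unless stated. A reversal of direction could be recorded only for the median log2 fold changes between the ages, and 0 were. For the comparisons of chambers, genes higher and lower were added up, so that a change in their balance was not recorded. The number of genes in the set (58) was 27 at a d10 maximum of at most 0.4 and 99 at 0.6, and 62 to 176 on leaving out each rumen library (95 without d5 library 3, 176 without d10 library 2); fewer libraries make the limits easier to meet. It was 75 on TMM-scaled CPM. For genes called lower in the reticulum (0), DESeq2 gave 14 (48 of all 14708 genes), no filter 4 (5 of 20641) and all 24 libraries 2 (4 of 16195). Leaving out each library gave 0 to 3, with 3 without d10 library 2 (3 of 14879). In the omasum (0), DESeq2 gave 9 (99 of 15130) and all 24 libraries 4 (154 of 16195). Without omasum d5 libraries 1 and 2, 22 genes were lower there at an unadjusted p under 0.05 (13 with all) and 37 had a gap (12 with all), with 1 library left at d5, assumed to vary like the d10 libraries. Leaving out single omasum libraries gave 12 to 25 and 12 to 29. In the abomasum, the genes lower at an unadjusted p under 0.05 (5) were 2 with the replicate block, 10 in the fit of all 24 libraries and 2 to 5 when each library was omitted in turn (2 when d10 library 3 was omitted), and those with a gap (4) were 6 to 9 (9, 7 and 8 without d5 libraries 1, 2 and 3, and 8 and 7 without d10 libraries 1 and 2). Requiring at least 10 counts in every library gave 10, 10 and 12 genes for the comparisons with the abomasum (42 and 43 at d10, 38 at d5), as fewer genes were then tested. The balance of genes higher and lower also changed, as given above. The replicate block changed no other count by over 1.5 times; it gave 0 in the reticulum and omasum by adjusted p, and 42, 43, 0 and 40 for the comparisons of chambers. The counts at an unadjusted p under the alternatives, and the genes with a gap in the omasum without d5 libraries 1 and 2, were added after seeing the data. The lowest count of 32 holds for the rumen d5 libraries. Counts were lower in the other chambers, down to 0 in the omasum and abomasum, and genes near 0 cannot be compared between ages there.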
